A study of Mus musculus with 7 samples.

Results

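The enzymes that make serine, pass its carbon to folate and turn its carbon skeleton into cysteine were followed in hippocampal neurosphere cultures with and without an intact Mediator subunit 23 gene (Med23). They comprise 10 genes, Phgdh, Psat1, Psph, Shmt1, Shmt2, Mthfd1, Mthfd2, Mat2a, Cbs and Cth, of the 24346 gene symbols in the deposited table, taken by symbol. These genes were picked with their difference between Med23 CKO and control libraries in FPKM in view, so that difference is described below with no p-value. Primary neural stem cells (NSCs) from the hippocampus of single C57/BL6 mice, 2 months old per the labels, were grown into neurospheres, floating balls of stem cells and their progeny, and RNA was sequenced from 4 control cultures, named WT_215, WT_116, WT_213 and WT_220, and from 3 cultures of Med23 CKO mice, named KO_117, KO_214 and KO_218. Values are given in this order throughout, as FPKM, fragments scaled to the length of the transcript and to the mapped fragments of the library, which is a level per length.

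The Med23 CKO mice carried both floxed Med23 alleles and a Nestin-CreER transgene, whose recombinase is made in Nestin-expressing cells and becomes active with tamoxifen. The control libraries are labelled wild type, whereas the methods describe the controls as littermates with 1 or both Med23 alleles floxed and no Cre named. Both groups received tamoxifen by mouth at 200 mg/kg for 5 days, at a younger age per the methods for cultures than the labels give. Cells that did not express Nestin, or in which the deletion failed, kept Med23, and their share of a culture was not measured here.

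Serine is made from a glycolysis intermediate by Phgdh, Psat1 and Psph. The Shmt enzymes then split serine into glycine and a one-carbon unit that the Mthfd enzymes carry through the folate cycle to nucleotides and to methionine, in parallel routes in cytosol and mitochondria. Mat2a turns methionine into S-adenosylmethionine, the methyl donor, and what is left of it after methylation, homocysteine, is joined to serine by Cbs and cleaved by Cth to give cysteine, the limiting part of glutathione. In brain, Phgdh and Cbs are known as enzymes of radial glia and astrocytes, and mitochondrial Shmt2 and Mthfd2 as enzymes of growing cells.

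The stretch before the RefSeq start of 4 of these genes is shown because Cbs was the gene whose groups did not overlap, and Phgdh, Shmt1 and Shmt2 were the genes that varied most among libraries. The sequences are those of RefSeq on GRCm38.p6 (9 of the 10 genes matched, Cth not among them), 5′ to 3′ on the gene's own strand, cut to bases in no annotated exon of the gene. The stretch of Shmt1 lies inside the gene as GENCODE annotates it, which begins further upstream (at 60811718). Capitals mark CCAAT, the letters that the factor NF-Y binds, read on either strand (ATTGG is the reverse).
Cbs (chr17:31637239-31637455, reverse strand): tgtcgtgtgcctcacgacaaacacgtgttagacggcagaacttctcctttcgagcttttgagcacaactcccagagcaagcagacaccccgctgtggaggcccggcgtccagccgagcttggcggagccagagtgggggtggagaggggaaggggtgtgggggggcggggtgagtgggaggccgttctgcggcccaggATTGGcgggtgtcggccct
Phgdh (chr3:98339991-98340219, reverse strand): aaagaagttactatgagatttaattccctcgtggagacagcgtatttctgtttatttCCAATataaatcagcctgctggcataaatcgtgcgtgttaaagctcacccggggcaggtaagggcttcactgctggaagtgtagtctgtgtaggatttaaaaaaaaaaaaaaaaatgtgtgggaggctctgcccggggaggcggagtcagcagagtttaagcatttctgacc
Shmt1 (chr11:60811266-60811466, reverse strand): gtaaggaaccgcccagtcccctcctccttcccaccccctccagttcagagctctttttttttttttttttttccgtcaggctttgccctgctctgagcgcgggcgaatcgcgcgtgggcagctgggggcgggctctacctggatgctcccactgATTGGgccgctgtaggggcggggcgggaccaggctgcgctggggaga
Shmt2 (chr10:127522445-127522694, reverse strand): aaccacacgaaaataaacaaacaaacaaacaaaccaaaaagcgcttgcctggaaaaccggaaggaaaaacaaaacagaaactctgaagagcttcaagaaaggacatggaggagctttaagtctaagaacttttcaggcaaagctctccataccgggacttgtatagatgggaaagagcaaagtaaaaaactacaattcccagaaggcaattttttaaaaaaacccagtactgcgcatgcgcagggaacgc
In the 250 bases before the RefSeq start, CCAAT on either strand occurred for 8 of the 9 genes matched (Cbs, Mat2a, Mthfd1, Mthfd2, Phgdh, Psat1, Psph and Shmt1, not Shmt2) and in 33.8% of 32851 promoters of the same length. Cbs had CCAAT 52 to 48 and 15 to 11 bases before its start, of which the first is in the stretch printed. CACGTG, the E-box, was found for Cbs alone (6.02% of promoters), TGACNNNGC, the core of the element bound by Nfe2l2, for Phgdh alone (10.2%), and CCGGAAG, an ETS core, for Shmt2 alone (6.91%). TGATGNAA, the composite element bound by Atf4, was found for 0 of the 9 genes and in 3.45% of promoters. Among the 13721 promoters of genes tested here, the shares were 34.9% for CCAAT, 8.02% for CACGTG and 11.8% for TGACNNNGC. They were 12.3% for CCGGAAG and 2.05% for TGATGNAA. Palindromic CACGTG reads alike on both strands, the other letters were searched on both, and no 2 of these motifs overlapped in a gene matched. These are matches of letters and no evidence of binding.

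The targeted gene was listed at 11.4, 10.3, 12.9 and 10.1 FPKM in the controls and at 9.97, 9.27 and 8.12 FPKM in the Med23 CKO libraries. The groups did not overlap, but the lowest control and the highest Med23 CKO value were close, and the log2 difference was −0.26 with a standard error (SE) of 0.18. The level is counted over the whole gene, including the exons that the deletion leaves, so it checks the labels only weakly. Among the markers of the labelled cell type, 10 of 10 genes of the NSC list had a mean above 1 FPKM, with Sox2 at 69.4 to 194 and Nes at 61.1 to 240 FPKM, but so did 10 of 10 oligodendrocyte genes, with Mbp at 66.5 to 2234 FPKM. Microglia genes were at a mean above 1 FPKM for 12 of 15, and their summed level was 59.2 to 343 FPKM in the controls and 62.3 to 1346 FPKM in the Med23 CKO group, where KO_214 stood apart. The summed level of 15 cell cycle genes ran from 484 to 1467 FPKM in the controls and from 281 to 1875 FPKM in the Med23 CKO group, lowest in KO_214 and highest in KO_117. No depth is known for any library, and the number of libraries limits the precision.

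All 10 enzyme genes were expressed. In the order of their mean log2 FPKM over the 7 libraries they ran Psat1, Mat2a, Phgdh, Shmt2, Mthfd1, Mthfd2, Psph, Cbs, Shmt1 and Cth. By mean FPKM, Psat1 lay above 98.3% of all genes in the table, Phgdh above 97.1%, Cbs above 86.9% and Cth above 52.0%. Of the 9 neighbouring pairs in that order, 0 differed at an adjusted p under 0.05 in exact two-sided paired permutation tests over the 7 libraries, in which 0.0156 is the smallest p possible. Phgdh exceeded Shmt2 in 7 of 7 libraries (1.87-fold, exact p = 0.0156, adjusted p = 0.0703 over the 9 pairs) and Shmt1 exceeded Cth in 7 of 7 (6.65-fold, with the same exact p and adjusted p). The other 7 neighbouring pairs changed places between libraries. Together the 10 genes summed to 769, 550, 547 and 821 FPKM in the controls and to 892, 469 and 611 FPKM in the Med23 CKO libraries, with the highest and the lowest sum both in the Med23 CKO group.

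Between groups, 4 of the 10 genes had a higher and 6 a lower mean log2(FPKM + 1) in the Med23 CKO libraries, and their median difference was −0.06, beside −0.03 over the 14151 genes with a mean of at least 0.5 FPKM. The groups did not overlap for 1 of the 10, Cbs, beside 2.32% of all genes tested (0.784% higher and 1.53% lower in the Med23 CKO group). Across all genes tested, limma gave 0 (0%) with an adjusted p under 0.05, and with an unadjusted p under 0.05 it gave 71 (0.502%) on the higher and 141 (0.996%) on the lower side. That balance depended on scaling and on 1 library, with 99 higher and 119 lower when library medians were centred, 102 and 123 after quantile normalization, and 139 and 70 without KO_218. In these bulk samples, fewer cells of a type and less RNA per cell cannot be told apart.

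**Figure D1:**
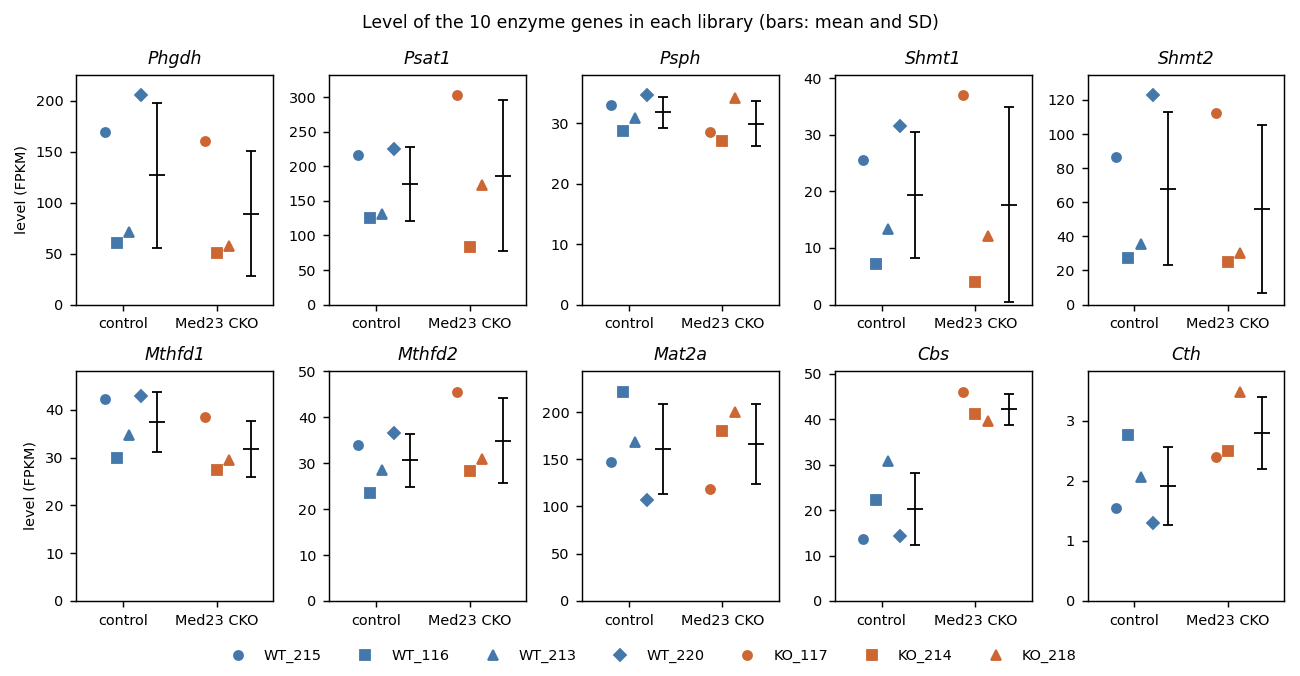
Level of each enzyme gene in FPKM (vertical axes from 0, a scale for each gene) in the 4 control libraries (blue) and the 3 Med23 CKO libraries (orange), with group means and SD as black bars. Only for Cbs do the groups not overlap, with 39.5 to 46.0 FPKM in the Med23 CKO and 13.7 to 30.7 FPKM in the control libraries.

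The 3 enzymes of serine synthesis differed in how far they varied. Phgdh, which catalyses the first and committing step (chromosome 3, 98313170 to 98339990, reverse strand, GRCm38), was at 169, 60.8, 71.4 and 205 FPKM in the controls and at 160, 50.2 and 57.1 FPKM in the Med23 CKO libraries. Each group held high and low libraries, 3.37-fold apart at most in the controls and 3.19-fold in the Med23 CKO group: WT_215, WT_220 and KO_117 were high and the other 4 low, and the groups overlapped. The log2 difference of Med23 CKO from control was −0.52 (SE 0.57), and it was −1.04 without KO_117 and −0.21 without KO_214. Without KO_117 the remaining Med23 CKO values lay below all controls. Groups separate more easily with fewer libraries, and the share of all genes that did so without KO_117 was not computed.

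Psat1, the transaminase of the second step (chromosome 19, 15904678 to 15947337, reverse strand), was at 217, 126, 131 and 225 FPKM in the controls and at 303, 84.0 and 174 FPKM in the Med23 CKO libraries. KO_117 was the highest and KO_214 the lowest of all 7, so that the Med23 CKO values spanned the controls on both sides. The log2 difference was −0.04 (SE 0.44), −0.48 without KO_117 and 0.44 without KO_214, so its sign rested on these libraries. Psph, the phosphatase of the last step (chromosome 5, 129765558 to 129787449, reverse strand), was at 33.0, 28.7, 30.9 and 34.6 FPKM in the controls and at 28.6, 27.1 and 34.1 FPKM in the Med23 CKO libraries. It was the steadiest of the 10, with 1.27-fold between its highest and lowest library, and its groups overlapped with a log2 difference of −0.09 (SE 0.16). Its exons share 452 bases with those of Cct6a on the other strand, a gene at 92.5 to 169 FPKM, and the use of strand in counting was not stated in the sources used here.

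Among the folate enzymes, cytosolic Shmt1 (chromosome 11, 60788104 to 60811718, reverse strand) varied most of the 10 genes, at 25.5, 7.15, 13.3 and 31.6 FPKM in the controls and at 36.9, 4.03 and 12.04 FPKM in the Med23 CKO libraries. KO_117 and KO_214, both of the Med23 CKO group, were 9.16-fold apart and enclosed every control value. The log2 difference was −0.39 (SE 0.74), −1.13 without KO_117 and 0.32 without KO_214. Exons of Shmt1 share 184 bases with those of Smcr8 on the other strand. Smcr8 was listed at 5.56 to 11.4 FPKM, above Shmt1 in WT_116 and KO_214, and its part in the Shmt1 values was not tested. Mitochondrial Shmt2 (chromosome 10, 127517123 to 127522444, reverse strand) was at 86.5, 27.5, 35.3 and 123 FPKM in the controls and at 113, 24.7 and 30.5 FPKM in the Med23 CKO libraries. The same 3 libraries as for Phgdh were high, and the groups overlapped. Its log2 difference was −0.36 (SE 0.68), −1.02 without KO_117 and 0.05 without KO_214.

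Mthfd1, the cytosolic enzyme of 3 activities that interconverts the folate-bound one-carbon units (chromosome 12, 76255298 to 76319803, forward strand), was at 42.4, 29.9, 34.7 and 43.0 FPKM in the controls and at 38.5, 27.4 and 29.5 FPKM in the Med23 CKO libraries. The high libraries were again WT_215, WT_220 and KO_117, over a much narrower range than for Shmt2, and the log2 difference was −0.23 (SE 0.20). Mthfd2, its mitochondrial counterpart for the dehydrogenase and cyclohydrolase steps (chromosome 6, 83305691 to 83325908, reverse strand), was at 33.9, 23.6, 28.5 and 36.6 FPKM in the controls and at 45.6, 28.2 and 31.0 FPKM in the Med23 CKO libraries. KO_117 was above all other libraries, the other Med23 CKO values lay among the controls, and the log2 difference was 0.17 (SE 0.23). Without KO_117 the value for Mthfd2 was −0.03, and for Mthfd1 it was −0.37 with the remaining Med23 CKO values below all controls. As for Phgdh, no share of all genes was computed beside this separation.

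Mat2a, the S-adenosylmethionine synthetase of tissues other than liver (chromosome 6, 72432799 to 72439558, reverse strand), ran the other way: it was at 147, 221, 169 and 107 FPKM in the controls and at 119, 180 and 200 FPKM in the Med23 CKO libraries. The libraries that were high for Phgdh and Shmt2 were the 3 lowest for Mat2a, and the groups overlapped. The log2 difference was 0.06 (SE 0.29), between −0.12 without WT_220 and 0.28 without KO_117. Exons of Mat2a share 508 bases with those of Particl on the other strand, which was listed at 3.56 to 9.35 FPKM.

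Cbs, cystathionine beta-synthase, which commits homocysteine to cysteine (chromosome 17, 31608894 to 31637238, reverse strand), was at 13.7, 22.2, 30.7 and 14.3 FPKM in the controls and at 46.0, 41.0 and 39.5 FPKM in the Med23 CKO libraries. The lowest of the Med23 CKO libraries was higher than the highest control, and the 3 were closer to each other (42.2 ± 3.41, SD, n = 3) than the controls were (20.2 ± 7.99, SD, n = 4). The log2 difference was 1.10 (SE 0.29), and it was 0.94 to 1.31 with any 1 library left out. In the astrocyte list, whose mean log2(FPKM + 1) was 4.17 to 5.03 in the controls and 3.92 to 5.55 in the Med23 CKO libraries, 9 of 12 genes had a positive difference, with a median of 0.37, and 1 was higher (Mlc1) and 1 lower (Fgfr3) at an unadjusted p under 0.05 by limma, beside 0.502% and 0.996% of all genes tested. Mlc1, a membrane protein of astrocytes, was at 50.3, 33.2, 56.5 and 52.5 FPKM in the controls and at 91.8, 118 and 76.0 FPKM in the Med23 CKO libraries, and Fgfr3, a growth factor receptor of the same cells, was at 14.2 to 50.3 FPKM and at 5.32 to 15.2 FPKM. Slc1a2, the main glutamate transporter of astrocytes, was at 23.3 to 31.3 FPKM and at 27.9 to 55.0 FPKM, with a log2 difference of 0.59 (SE 0.26). Slc1a3 and S100b of the same list differed the other way, at −0.34 (SE 0.31) and −0.27 (SE 1.17). The astrocyte list mean was lowest, 3.92, in KO_117, where Cbs was highest (46.0 FPKM). The part of astrocytes in the Cbs values was not tested.

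Cth, cystathionine gamma-lyase, which completes the route to cysteine (chromosome 3, 157894248 to 157925077, reverse strand), was at 1.55, 2.76, 2.06 and 1.29 FPKM in the controls and at 2.40, 2.50 and 3.48 FPKM in the Med23 CKO libraries. One control, WT_116, lay among the Med23 CKO values, and the log2 difference was 0.39 (SE 0.24). It was 0.52 without WT_116, where the groups no longer overlapped. Fewer libraries make such a separation easier, and the share of all genes without WT_116 was not computed.

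**Figure D2:**
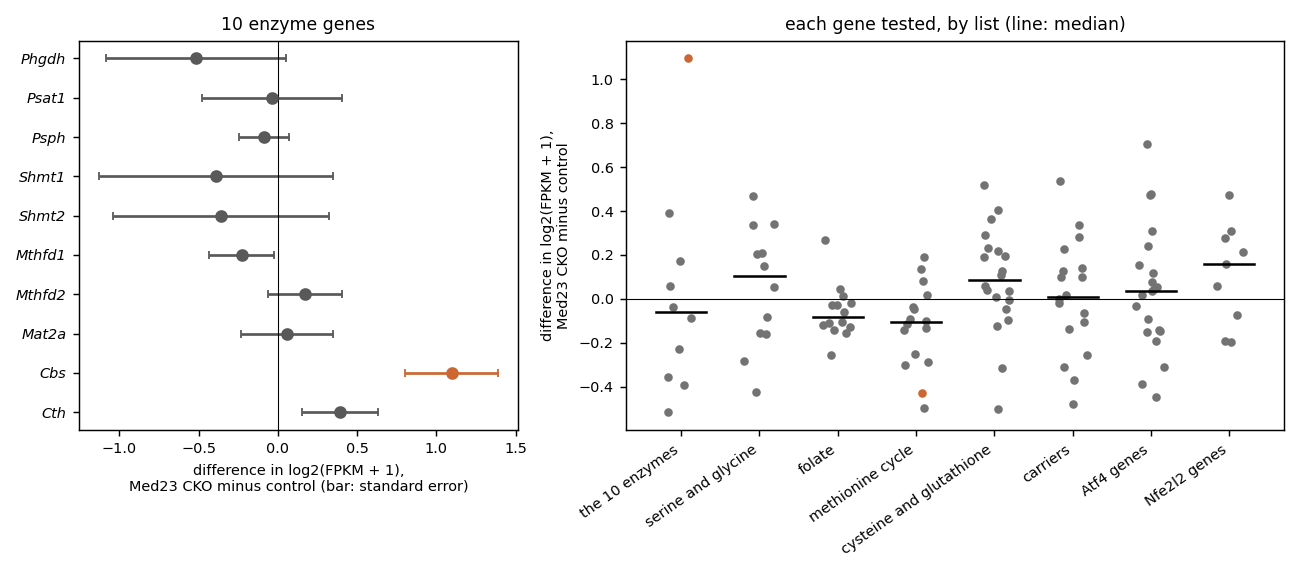
Difference of Med23 CKO from control in mean log2(FPKM + 1), at left for each enzyme gene (points, with SE from the limma fit as bars) and at right for each gene of the enzyme and pathway lists (points, with the list's median as a line), in orange where the groups did not overlap. Cbs stands at 1.10 with an SE of 0.29, the other 9 enzyme genes lie between −0.52 and 0.39, and Ahcyl2 of the methionine cycle is the other orange point at −0.43.

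How far the enzymes varied among libraries differed widely between them. Over the 7 libraries, the SD of log2(FPKM + 1) was larger for Shmt1 than for 93.5% of the 9919 genes with a mean of at least 5 FPKM, for Shmt2 than for 92.2% and for Phgdh than for 88.7%, whereas Psph exceeded 5.68%. WT_215, WT_220 and KO_117 held the 3 highest values for 6 of the 10 enzyme genes (Phgdh, Psat1, Shmt1, Shmt2, Mthfd1 and Mthfd2), a set of libraries noticed in these values and given without a test. They held the 3 highest values for 26.2% of all genes tested, for 15 of 15 cell cycle genes and for 7 of 10 NSC genes. They also did so for 7 of 14 other folate genes tested, 9 of 18 transporters and 5 of 16 methionine cycle genes tested. The counts were 4 of 20 for cysteine use and glutathione, 2 of 12 for serine and glycine, and 3 of 10 for oligodendrocyte genes. These 3 libraries held the 3 lowest values for Mat2a, for 12 of 14 microglia genes tested and for 8 of 9 genes of the Nfe2l2 program, beside 23.6% of all genes tested. The same held for 10 of 11 endothelial genes tested and 11 of 20 genes of cysteine use and glutathione. It also held for 5 of 10 oligodendrocyte, 5 of 12 astrocyte, 3 of 8 neuron, 2 of 10 NSC and 1 of 9 mural cell and fibroblast genes. Averaged over its genes, the cell cycle list stood at a log2(FPKM + 1) of 6.22, 4.33, 5.16 and 6.31 in the controls and of 6.68, 3.17 and 5.25 in the Med23 CKO libraries, and the microglia list one of 2.02, 2.91, 3.35 and 1.57 and of 1.64, 4.89 and 2.93. With the mean of the cell cycle, microglia or astrocyte list as a covariate, added after seeing the data, the log2 difference between groups was −0.24, −0.09 and −0.24 for Phgdh, 0.20, 0.34 and 0.20 for Psat1, 0.01, 0.22 and −0.02 for Shmt1, and −0.02, 0.17 and −0.01 for Shmt2. For Mat2a it was −0.05, −0.10 and −0.05, and for Cbs 1.05, 1.003 and 1.06. The sign thus turned for Psat1 and Mat2a with each covariate, for Shmt1 with the cell cycle and microglia lists and for Shmt2 with the microglia list. For these genes the difference without a covariate was already smaller than its SE, so its sign was not settled to begin with. The SE with a covariate is not given here. Whether cell types or proliferation caused any of these differences was not tested.

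**Figure D3:**
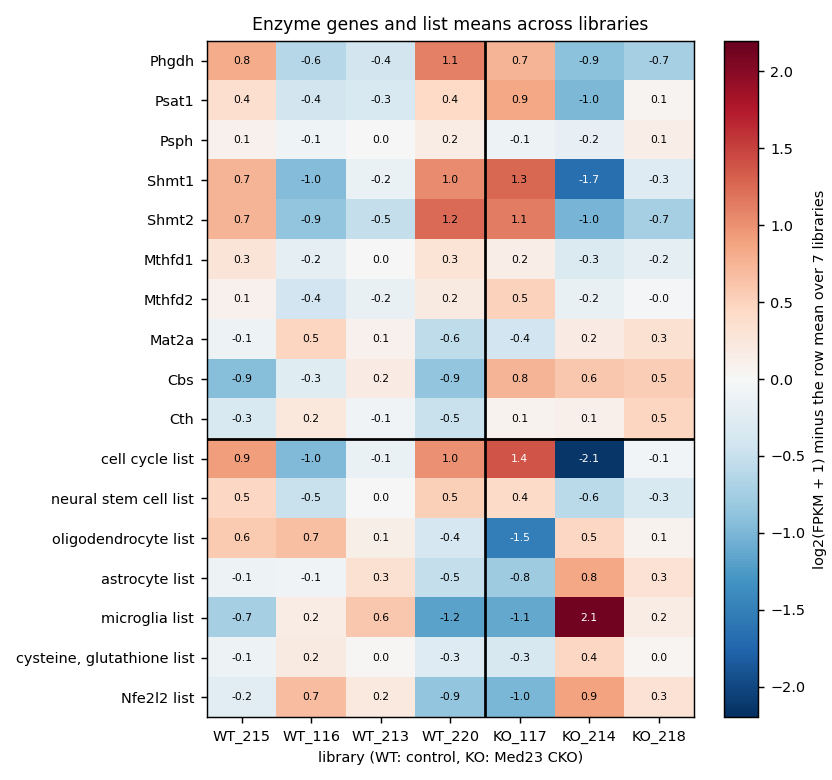
Log2(FPKM + 1) of each enzyme gene and mean of each marker list in each library, as the difference from the row's own mean over the 7 libraries (colour and printed value). WT_215, WT_220 and KO_117 are above the mean for Phgdh, Shmt1, Shmt2 and the cell cycle list, whereas Cbs is above it in all 3 Med23 CKO libraries and in the control WT_213.

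Within a library, the balance between paired enzymes does not depend on scaling of the library and was not used to pick the genes as a level, and 5 pairs were tested over all 7 libraries by exact two-sided paired permutation. Mitochondrial Shmt2 exceeded cytosolic Shmt1 in 7 of 7 libraries, by 3.50-fold on average and between 2.53-fold and 6.13-fold (exact p = 0.0156, adjusted p = 0.0195). Mthfd2 exceeded Mthfd2l, the mitochondrial paralog of adult tissues, by 5.51-fold (4.77-fold to 7.67-fold), and Mat2a exceeded the liver form Mat1a by 59.4-fold (32.7-fold to 93.4-fold), each in 7 of 7 libraries with the same exact p and adjusted p. Transcripts of Cbs exceeded those of Cth by 12.3-fold (8.04-fold to 19.2-fold) in 7 of 7 libraries, again with the same p. Mthfd2 exceeded Mthfd1 in 3 of 7 libraries and was at 0.922-fold of it on average (0.789-fold to 1.18-fold, exact p = 0.266, adjusted p = 0.266).

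By library, the ratio of Mthfd2 to Mthfd1 was 0.800, 0.789, 0.821 and 0.852 in the controls and 1.18, 1.03 and 1.05 in the Med23 CKO libraries. Mthfd1 was the more abundant in each control and Mthfd2 in each Med23 CKO library, so the ratios did not overlap. For Shmt2 over Shmt1, Mthfd2 over Mthfd2l, Mat2a over Mat1a and Cbs over Cth, the ratios of the groups overlapped. The separation was noticed after seeing the values, and the share of other gene pairs with such a separation was not computed. Both genes were chosen on this contrast, and the ratio is given as a description with no test.

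**Figure D4:**
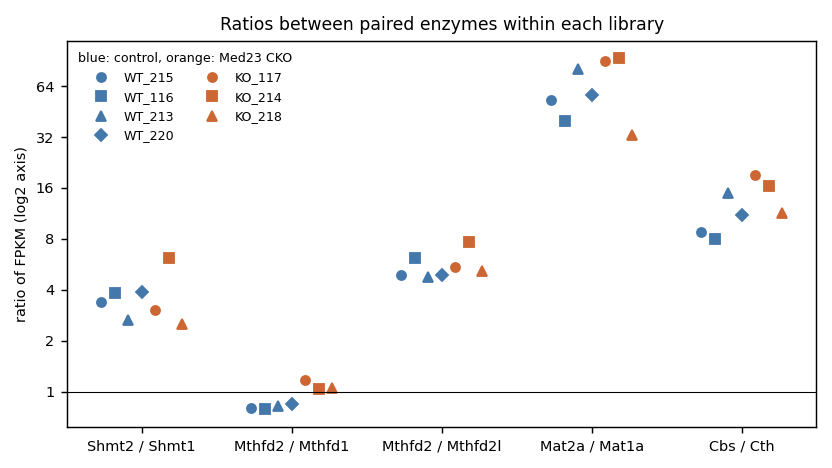
Ratio of FPKM between paired enzymes in each library (log axis) for the 4 control libraries (blue) and the 3 Med23 CKO libraries (orange). The lowest ratios are those of Mthfd2 over Mthfd1, 0.789 to 1.18, and the highest those of Mat2a over Mat1a, 32.7 to 93.4.

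The other genes of these pathways were listed by function, 84 in all, of which 80 passed the filter on low values. By limma, 0 of them had an unadjusted p under 0.05 in either direction, beside 1.5% of all genes tested, and 0 had an adjusted p under 0.05. Their median log2 difference was −0.02. The groups did not overlap for 1 of the 80, beside 2.32% of all genes tested. It was Ahcyl2, a relative of the enzyme that clears S-adenosylhomocysteine, which was at 31.2, 20.0, 23.6 and 29.2 FPKM in the controls and at 18.5, 19.7 and 18.0 FPKM in the Med23 CKO libraries (log2 difference −0.43, SE 0.20). Every control was higher, though WT_116 was only just above KO_214.

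Around serine and glycine, 0 of 12 genes tested passed at an unadjusted p under 0.05, with a median log2 difference of 0.10. Gldc, the decarboxylase of the glycine cleavage system, stood lowest at −0.42 (SE 0.47), with 5.09 to 23.4 FPKM in the controls and 7.81 to 10.8 FPKM in the Med23 CKO libraries, and Alas1, which uses glycine for haem, highest at 0.47 (SE 0.50), with KO_214 alone at 84.1 FPKM and the other 6 libraries at 17.3 to 27.4 FPKM. Among other folate genes, 0 of 14 passed, with a median of −0.08, between Mthfd1l, the mitochondrial formate producer, at −0.26 (SE 0.58) and Ggh, which trims folate polyglutamates, at 0.27 (SE 0.49). Mthfd1l was at 62.5 FPKM in KO_117, 56.3 in WT_220 and 34.1 in WT_215, and at 13.5 to 22.0 FPKM in the other 4 libraries, the high and low libraries of Shmt2. Among methionine cycle genes 0 of 16 passed, with a median of −0.11 and the lowest value, −0.50 (SE 0.45), for Sardh, a mitochondrial enzyme that breaks down sarcosine.

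On the cysteine side, 0 of 20 genes of cysteine use and glutathione passed, and their median log2 difference was 0.08. Chac2, which breaks down glutathione, was highest at 0.52 (SE 0.34), with 3.09 to 8.08 FPKM in the controls and 6.20 to 10.3 FPKM in the Med23 CKO libraries, and Ggt7, of the gamma-glutamyltransferase family, was lowest at −0.50 (SE 0.41). Of the transporters, 0 of 18 passed, with a median of 0.01. Slc7a11, the exchanger that brings in cystine, had the highest difference at 0.54 (SE 0.85), from 8.23, 22.1, 18.2 and 3.43 FPKM in the controls and 3.73, 41.2 and 22.9 FPKM in the Med23 CKO libraries. It was lowest in WT_215, WT_220 and KO_117, and its groups overlapped. Sfxn1, which carries serine into mitochondria, had the lowest at −0.48 (SE 0.40), from 25.0 to 62.0 FPKM in the controls and 21.4 to 48.3 FPKM in the Med23 CKO libraries.

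Atf4 is known to drive serine synthesis genes in amino acid shortage, and Nfe2l2 to drive cystine uptake and glutathione genes. The 30 genes listed for the programs of these factors, all tested, included Atf4, Nfe2l2 and Keap1 and so were not all targets. Serine synthesis, cystine uptake and glutathione genes were counted among the enzyme genes and the lists above. By limma 0 of the 30 had an unadjusted p under 0.05 in either direction, near the 1.5% of all genes tested. The medians were 0.04 for the 21 genes of the Atf4 program and 0.16 for the 9 of the Nfe2l2 program. Atf4 itself was at 125 to 149 FPKM in the controls and 127 to 147 FPKM in the Med23 CKO libraries. These are RNA levels, and the protein or activity of either factor was not measured. Atf3, a stress-induced factor, had the highest difference at 0.70 (SE 0.91) and was at 48.7 FPKM in KO_214 and 2.29 to 13.6 FPKM elsewhere. Ddit4, a stress-induced brake on growth signalling, had the lowest at −0.45 (SE 0.28), with WT_220 alone at 99.8 FPKM. Of the Nfe2l2 program, Hmox1, which degrades haem, had the highest at 0.47 (SE 1.004), with 51.8 FPKM in KO_117 and 1020 FPKM in KO_214.

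The genes whose levels ran most like those of Cbs, by the root mean square difference of log2(FPKM + 1) centred on each gene's own mean over the 7 libraries, were Tmem229a (0.27), Prrx1 (0.28) and Skap2 (0.29), out of 9918 genes with a mean of at least 5 FPKM. Their groups did not overlap either, beside 2.32% of all genes tested. They were picked for likeness to Cbs over these same libraries, so this followed largely from the choice. No other enzyme gene of the 10 with a mean of at least 5 FPKM was close to Cbs: Mat2a ranked 2333 (0.64), and Phgdh ranked 9312 (1.27). The measure also counts how far each gene varied, so such ranks do not by themselves show shared or opposite patterns. Closest to Phgdh were Sox8 (0.09), a transcription factor of glia, Polg (0.10), the mitochondrial DNA polymerase, and Tacc2 (0.10). Shmt2 ranked 35 among the genes like Phgdh (0.19), Shmt1 1024 (0.41), Psat1 1222 (0.44) and Psph 4569 (0.74), although Psat1 and Psph act in the same pathway.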

How the data were processed

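RNA of primary neurospheres was measured in 7 libraries, 4 control and 3 Med23 CKO, each from 1 mouse and grouped by its genotype label. The paper states fewer control mice for this experiment than the table holds and does not name them, so every library was used. Per the labels and methods, the authors aligned reads to mm10 with TopHat and computed FPKM per gene with Cuffdiff, and these FPKM values were deposited for each library. The authors' group means, log2 fold change, test score, p-value and q-value columns were not used. The 10 genes and all lists were chosen with earlier results of these data known.

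Values were analysed as log2(FPKM + 1), a pseudocount of 1, for 14151 genes with a mean of at least 0.5 FPKM (all 10 enzyme genes passed), with limma 3.58.1 in R 4.3.3 (lmFit, eBayes with trend, two-sided, Benjamini-Hochberg over the genes tested). A fold change on this scale understates the change of low genes. Level order (9 pairs) and enzyme pairs (5 pairs) were tested on log2 FPKM by exact paired sign-flip permutation in Python 3.11.15. The scripts were tested on simulated data. Low values showed no whole-fragment steps (at most 5.27% of values in 1 bin), so depth is unknown.

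Genes named are the enzyme genes, Med23, paired isozymes, markers, per list genes with an unadjusted p under 0.05 and some of the 2 highest and 2 lowest differences, and the 3 genes most like Cbs and Phgdh. Atf4, and Mat2a and other enzyme genes in the likeness ranks, were named besides. Gene coordinates and exon overlaps are from GENCODE M21 (GRCm38, which is mm10), promoters from RefSeq GRCm38.p6. Alternatives tried were a pseudocount of 0.1, no filter or a mean of at least 1 FPKM, quantile normalization, centred medians, limma without trend, with robust empirical Bayes or with array weights (statmod 1.5.0), the leading digit of the mouse number as a fixed term, omission of single libraries, and 3 marker list covariates added after seeing the data.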

Additional observations from a re-analysis of the deposited data

How the results depend on the processing

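When single libraries were omitted, the log2 difference ranged from 0.94 to 1.31 for Cbs, 0.27 to 0.52 for Cth, −0.12 to 0.28 for Mat2a, −0.37 to −0.13 for Mthfd1, −0.03 to 0.31 for Mthfd2, −1.04 to −0.21 for Phgdh, −0.48 to 0.44 for Psat1, −0.18 to −0.02 for Psph, −1.13 to 0.32 for Shmt1, −1.02 to 0.05 for Shmt2 and −0.32 to −0.19 for Med23. The median over the enzyme genes ranged from −0.22 without KO_117 to 0.18 without KO_214. The number of enzyme genes with groups that did not overlap was 1 to 2 on the higher side (Cbs, and Cth without WT_116) and 0 to 2 on the lower (Phgdh and Mthfd1 without KO_117, Psph without KO_218). Groups separate more easily with fewer libraries. The share of all genes tested whose groups did not overlap, 2.32%, was computed for all 7 libraries only, so these counts have no background share. Over the whole table, genes at an unadjusted p under 0.05 numbered 45 to 354 higher (most without KO_117) and 70 to 410 lower (most without KO_117, fewest without KO_218), and 0 to 1 passed the adjusted threshold by limma (Snora64 without KO_214, Gm38671 without KO_218). Other pathway genes gave 0 to 0 higher and 0 to 3 lower (Ahcyl2, Csad and Gldc without WT_116, Mmachc without KO_117), and the Atf4 and Nfe2l2 lists 0 to 1 higher (Nupr1 without KO_117) and 0 to 1 lower (Sesn2 without KO_214). Under the other alternatives Cbs ranged from 0.91 to 1.13, and the median over the enzyme genes from −0.07 to 0.19. Without the filter, 140 genes were higher over the whole table and 1 other pathway gene was lower (Ahcyl2). Array weights gave −0.43 for Med23, 0.05 for Psph, 193 genes higher and 887 lower, 1 other pathway gene higher (Agxt) and 2 lower (Ahcyl2 and Enoph1), and 2 genes of the Atf4 and Nfe2l2 lists lower (Ddit4 and Sesn2). A covariate for the cell cycle list gave 180 genes higher and 393 lower, for the microglia list 156 and 399, and for the astrocyte list 160 and 299. Sesn2 was the 1 gene of the Atf4 and Nfe2l2 lists lower under each of these covariates, and Gcat the 1 other pathway gene higher under the microglia and astrocyte covariates. The cause of these changes was not tested. Of the 5 enzyme pairs, Mthfd2 over Mthfd1 had a mean log2 ratio of −0.18 to −0.08 with a library left out. With 6 libraries the smallest exact p is 0.0313. The methods describe the controls as littermates, but the labels name no litter, so no analysis paired by litter was possible. With 4 and 3 libraries and unknown depth, the SE of the log2 difference was 0.57 to 0.74 for Phgdh, Shmt1 and Shmt2, so the limits on their differences are wide.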
